A study of Mus musculus with 4 samples.

Results

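Transcript levels of 10 mouse genes of the NRF2, glutathione and thioredoxin systems were taken from RNA-seq of T-helper 17 (Th17) cells. The genes were picked by name: Nfe2l2, Keap1, Hmox1, Gclc, Gclm, Slc7a11, Gpx4, Txn1, Txnrd1 and Prdx1. Each was found once among the 50600 genes of every table, by matching its Ensembl identifier to a GENCODE symbol. The series holds 4 libraries of 1 group, primary Th17 cells of strain C57BL/6NJ, so no condition, genotype or time could be compared. The levels were instead set against a fixed line of 1 TPM (the usual unit of transcript abundance, a gene's count per length of exon as a part of the library's total), against each other within a library, and against their own spread over libraries.

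The labels describe the cells as differentiated in culture from CD4 T cells and number the libraries as biological replicates 1 to 4, with 1 shared donor entry, no sex collected and an unknown age. A time of 24 h stands in the sample names of the file headers and not in the labels, and no untreated or other T cell group was analysed here. Total counts were 41360302, 19332509, 34979616 and 48558772 read pairs in replicates 1 to 4. All 8 Th17 markers checked and all 5 protein-coding T cell markers checked lay above 1 TPM, among them Batf at 787 TPM and Il23r at 14.4 TPM of the former. The test of spread between libraries given below called 1 of the 8 Th17 markers as varying, beside 0.51% of all genes tested. The libraries differed in the Y-linked gene Ddx3y, at 77.8 and 58.9 TPM in replicates 1 and 2 and at 0.240 and 0.0925 TPM in replicates 3 and 4, under the same donor entry. Nothing in the labels says which libraries share an animal, so p-values measure the spread between these samples, which may be partly technical. In bulk RNA, fewer cells expressing a gene and less RNA per cell cannot be told apart.

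NRF2, the product of Nfe2l2, is a transcription factor that pairs with small MAF proteins on antioxidant response elements; KEAP1 binds it and presents it for degradation until oxidants or electrophiles modify KEAP1. Its target genes include the enzymes that make glutathione, the thioredoxin system that reduces oxidised protein thiols, and heme oxygenase. Since NRF2 is controlled largely at the protein level, a transcript level of Nfe2l2 or Keap1 does not measure its activity. T cells raise cysteine uptake and glutathione synthesis when they are activated.

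Promoter sequences from RefSeq (GRCm38.p6; 250 bases before to 50 after a start) were matched for 8 of the 10 genes, with 13 promoters in all; Hmox1 and Gclc had no entry. The core of the antioxidant response element was searched on both strands as TGACNNNGC, and it is shown here because it is the DNA letter pattern that NRF2 is known for. A match was present in a promoter of 4 of these genes, Nfe2l2, Gclm, Prdx1 and Txnrd1 (1 of its 3 promoters), beside 13.99% of all 27025 genes with an entry (12.4% of 32851 promoters). Each window below is written 5′ to 3′ on the gene's strand, with the match in capitals; a match in capitals that starts with GC lies on the opposite strand.
Nfe2l2, chr2:75704875-75704913, minus strand: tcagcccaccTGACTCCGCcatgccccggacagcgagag
Gclm, chr3:122245403-122245451, plus strand: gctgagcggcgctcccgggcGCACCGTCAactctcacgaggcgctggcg
Txnrd1, chr10:82859094-82859142, plus strand: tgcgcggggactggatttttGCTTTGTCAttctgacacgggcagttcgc
Prdx1, chr4:116685446-116685494, plus strand: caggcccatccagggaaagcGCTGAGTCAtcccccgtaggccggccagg

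The AP-1 motif, searched as TGANTCA, was matched among these genes in the promoter of Prdx1 only, at 2 places, of which one overlaps the antioxidant match shown. It was present in a promoter of 8.97% of all genes (7.81% of promoters). The motif of C/EBP-ATF response elements, TGATGNAA, was matched only in the promoter of Slc7a11, on both strands, against 4.51% of all genes (3.97% of promoters). That window is shown because ATF4, a transcription factor of the amino acid response, binds such elements.
Slc7a11, chr3:50443633-50443699, minus strand: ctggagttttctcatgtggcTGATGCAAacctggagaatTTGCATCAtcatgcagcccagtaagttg
The promoters of Txn1, Keap1 and Gpx4 held none of these letter patterns within 300 bases. A match is a description of the letters, not a measured binding site.

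By edgeR's quasi-likelihood test across 21764 protein-coding genes, 9 of the 10 genes lay above 1 TPM and 1, Slc7a11, lay below it (Benjamini-Hochberg adjusted p under 0.05, two-sided). Of all protein-coding genes, 45.9% were called above the line and 51.5% below it. The median over the 10 genes was 51.3 TPM, beside 0.411 TPM over all protein-coding genes. DESeq2 gave the same 9 and 1 calls, with 0.0118 as the adjusted p of Slc7a11 and 5.52e-37 as the largest adjusted p among the other 9. Of the 21764 protein-coding genes, DESeq2 called 9540 above the line and 1184 below it. The summed level of the 10 genes was 2334, 2399, 2269.7 and 2401 TPM in replicates 1 to 4. Txn1, Prdx1 and Txnrd1, all of the thioredoxin system, made up most of that sum, with 2056, 2113, 1988 and 2102 TPM.

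**Figure D1:**
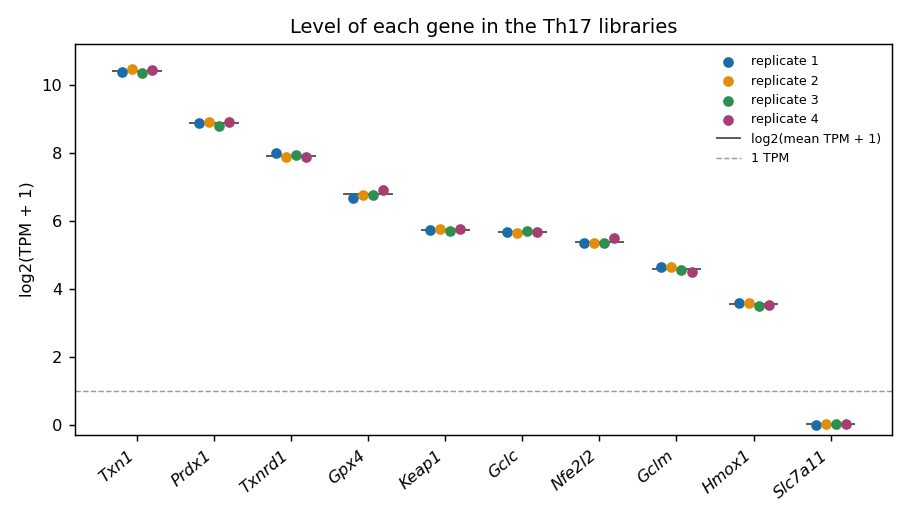
Level of the 10 genes, as log2(TPM + 1), in each of the 4 Th17 libraries (coloured points, 1 per replicate; horizontal mark, the mean TPM on the same scale; dashed line, 1 TPM). Txn1 stood highest at a mean of 1356 TPM, Slc7a11 alone lay under the dashed line at 0.0137 TPM, and Keap1 and Gclc lay side by side.

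Among the regulators, Nfe2l2 (ENSMUSG00000015839.6; mm10 chr2:75675513-75704641, minus strand) was measured at 39.71, 40.10, 39.97 and 43.89 TPM in replicates 1 to 4, a mean of 40.9 ± 1.99 TPM (SD, n = 4). Replicate 4 was the highest, and the other 3 libraries lay within 1 TPM of each other. Keap1 (ENSMUSG00000003308.15; chr9:21229730-21239361, minus strand), the adaptor that hands NRF2 to the CUL3 ubiquitin ligase, was measured at 52.3, 53.5, 51.1 and 53.6 TPM, a mean of 52.6 ± 1.19 TPM (SD, n = 4). Every library held more Keap1 than Nfe2l2, and the ranges did not overlap with the merged exon length used here. Within libraries, Nfe2l2 minus Keap1 was -0.36 ± 0.06 on the log2(TPM + 1) scale (SD, n = 4), a ratio of 0.778. With the length of the principal transcript in place of all merged exons, the difference shrank to -0.12 and the ratio was 0.918. The 4 libraries limit such a within-library difference to an exact sign-flip permutation p of 0.13 at best (two-sided), which none of the differences given here could pass at 0.05.

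Other factors that bind the same kind of element were set beside Nfe2l2. Nfe2l1, the NRF1 gene, stood at 115.2 ± 4.21 TPM (SD, n = 4), above Nfe2l2 in all 4 libraries, and Nfe2l2 minus Nfe2l1 was -1.47 ± 0.12 on the log2(TPM + 1) scale. Bach1, a repressor that competes with NRF2 and is released by heme, stood at 4.12 ± 0.565 TPM, below Nfe2l2 in all 4 libraries, and Nfe2l2 minus Bach1 was 3.04 ± 0.11 on that scale. Bach2, the lymphocyte counterpart of Bach1, was the highest of this factor family at 180.1 ± 8.89 TPM. Nfe2l3 was without a count, for an upper limit of 0.0235 TPM over the 4 libraries (3 counts, counting error only). Of the 16 partners, competitors and degradation factors of NRF2, 14 lay above 1 TPM and 2 below, at a median of 67.2 TPM. The highest were Pgam5 at 203 ± 11.4 TPM and Dpp3 at 199 ± 3.98 TPM, both KEAP1-binding proteins, and Bach2. Of the sequence of Pgam5, 54.6% of 50-base stretches also occur in other genes, so its value is uncertain.

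Glutathione synthesis starts with glutamate-cysteine ligase, made of the catalytic subunit GCLC and the modifier subunit GCLM. Gclc (ENSMUSG00000032350.9; chr9:77754535-77794485, plus strand) was measured at 49.79, 49.05, 51.37 and 49.96 TPM in replicates 1 to 4, a mean of 50.04 ± 0.968 TPM (SD, n = 4). Gclm (ENSMUSG00000028124.15; chr3:122245557-122270732, plus strand) was measured at 23.9, 24.2, 22.7 and 21.8 TPM, a mean of 23.1 ± 1.11 TPM (SD, n = 4). The catalytic subunit was the more abundant transcript in all 4 libraries, with no overlap. Gclc minus Gclm was 1.08 ± 0.08 on the log2(TPM + 1) scale, a ratio of 2.16 and a share of 68.4% of the summed level of both transcripts. Gclm and Hmox1 were both higher in replicates 1 and 2, which held Ddx3y, than in replicates 3 and 4, and Gclc was lower. The other genes above 1 TPM did not split between these pairs of libraries. Whether the 2 pairs of libraries differ was not tested. With 4 libraries a gene can split this way by chance. How many of all genes do so was not counted, so the split is not shown to be particular to these genes. Gss, glutathione synthetase, which adds glycine in the next step, stood at 20.2 ± 1.16 TPM and Gclc minus Gss at 1.27 ± 0.10. That order depended on the length used: with the length of the principal transcript in place of all merged exons, Gclc minus Gss was -0.14.

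Slc7a11 (ENSMUSG00000027737.10; chr3:49892526-50443614, minus strand) encodes xCT, the light chain of the cystine/glutamate antiporter. It had 0, 1, 4 and 3 read pairs in replicates 1 to 4, or 0, 0.0124, 0.0276 and 0.0148 TPM, over merged exons of 13922 bases. The 0 in replicate 1 allows up to 0.0177 TPM (3 counts), so the 4 libraries could not be ordered at this depth. Its level lay -6.19 on the log2 scale from 1 TPM (edgeR adjusted p 4.77e-16), and 9442 of the 21764 protein-coding genes had no more than its 8 counts. Slc3a2, the heavy chain that xCT shares with other amino acid transporters, stood at 261.9 ± 8.45 TPM (SD, n = 4). The light chain was thus near 0 in libraries in which its partner chain was abundant, a difference of -8.02 ± 0.06 on the log2(TPM + 1) scale.

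Of the 14 other genes of glutathione synthesis, recycling and breakdown, 11 were called above the line and 2 below it, and 1 was called neither, at a median of 14.5 TPM. The highest were Glrx5 at 272 ± 11.0 TPM, a mitochondrial glutaredoxin of iron-sulfur cluster assembly, Slc3a2, and Slc25a39 at 181 ± 3.69 TPM, which carries glutathione into mitochondria. With the principal transcript's length Glrx5 fell to 59.6 TPM, below Slc3a2 at 350.2, Glrx3 at 207 and Slc25a39 at 204 TPM. That length of Glrx5, 2925 bases in GENCODE M21, exceeds the 930 bases of exons in which its reads were counted. The 59.6 TPM thus divides by sequence that was not counted, and the place of Glrx5 in this order is uncertain. Oplah, 5-oxoprolinase, at 0.358 ± 0.119 TPM and Ggt1 at 0.360 ± 0.191 TPM were the lowest, and they were not separated. Gsr, the reductase that regenerates glutathione from its oxidised form, stood at 153 ± 4.92 TPM, below Txnrd1 in all 4 libraries. Txnrd1 minus Gsr was 0.64 ± 0.01 on the log2(TPM + 1) scale, a ratio of 1.57, or 3.05 with the principal transcript's length.

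GPX4 is the glutathione peroxidase that reduces lipid hydroperoxides in membranes and so blocks ferroptosis; like TXNRD1 it is a selenoprotein, in which a UGA codon is read as selenocysteine. The coding sequence around that codon is shown for both genes, with the codon, TGA in DNA, in capitals (GENCODE M21, mm10).
Gpx4, codon at chr10:80054737-80054739, plus strand: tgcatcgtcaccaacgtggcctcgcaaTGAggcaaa
Txnrd1, codon at chr10:82896037-82896039, plus strand: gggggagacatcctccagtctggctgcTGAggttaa
In Gpx4 the codon is followed by further coding sequence, and in Txnrd1 only 1 further codon separates it from the stop.

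Gpx4 (ENSMUSG00000075706.10; chr10:80047166-80056439, plus strand) was measured at 101, 108, 107 and 119.9 TPM in replicates 1 to 4, a mean of 108.9 ± 7.93 TPM (SD, n = 4). Replicate 4 was the highest and replicate 1 the lowest. Of its sequence, 34.7% of 50-base stretches also occur in other genes, chiefly in the pseudogene Gpx4-ps2, which had 12 to 48 counts per library, so the level of Gpx4 is uncertain. Gpx1, the cytosolic peroxidase that reduces hydrogen peroxide, stood at 521 ± 24.6 TPM, above Gpx4 in all 4 libraries, and held 82.6% of the summed level of the 6 peroxidase genes measured. Gpx4 minus Gpx1 was -2.25 ± 0.08 on the log2(TPM + 1) scale. Gpx2, Gpx3 and Gpx8 had no count in any library. Of the 15 other glutathione peroxidases and transferases, 6 were called above the line and 7 below it, and 2 were called neither, at a median of 0.598 TPM. The share above, 40%, lay near the 45.9% of all protein-coding genes. The highest of this list after Gpx1 were the transferases Gsto1 at 55.5 ± 1.10 TPM and Gstt2 at 43.2 ± 4.21 TPM. Gstp1, a transferase counted among the other NRF2 target genes, stood higher, at 198.5 ± 5.55 TPM. With the principal transcript's length Gstp1 stood at 126 TPM, against 63.7 TPM for Gsto1 and 54.9 TPM for Gstt2. Of the 50-base stretches of Gstp1, 33.7% also occur in other genes, so its value is uncertain.

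Txn1 (ENSMUSG00000028367.5; chr4:57943373-57956411, minus strand) encodes cytosolic thioredoxin, the small protein that passes electrons to oxidised thiols. It was measured at 1331, 1401, 1299.6 and 1393 TPM in replicates 1 to 4, a mean of 1356 ± 48.9 TPM (SD, n = 4), and ranked 73 among protein-coding genes. Txnrd1 (ENSMUSG00000020250.10; chr10:82833951-82897712, plus strand), the reductase that recharges it with NADPH, was measured at 252, 233, 243 and 233 TPM, a mean of 240.4 ± 8.98 TPM. Prdx1 (ENSMUSG00000028691.12; chr4:116685544-116700822, plus strand), a peroxiredoxin that spends those electrons on hydrogen peroxide, was measured at 473, 478, 446 and 475 TPM, a mean of 468 ± 15.2 TPM. In every library the order was Txn1, Prdx1, Txnrd1, with no overlap of ranges. Replicate 3 was the lowest for Txn1 and Prdx1, and replicate 1 the highest for Txnrd1. Txn1 minus Txnrd1 was 2.49 ± 0.10 on the log2(TPM + 1) scale, a ratio of 5.64; the principal transcript's length lowered that ratio to 2.81.

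Txn1 and Txnrd1, the cytosolic forms, each stood above the mitochondrial form. Txn2, mitochondrial thioredoxin, was measured at 297 ± 5.56 TPM, so that Txn1 held 82.0% ± 0.284 of the summed thioredoxin level. Txnrd2, the mitochondrial reductase, was measured at 26.1 ± 1.68 TPM, and Txnrd1 held 83.0% ± 0.419 of the level of the 3 reductases. The ratio of Txn1 to Txn2 was 4.57, or 2.22 with the principal transcript's length, and the ratio of Txnrd1 to Txnrd2 was 9.22. Prdx1 stood above Prdx2, the other main cytosolic peroxiredoxin, by 1.70 ± 0.05 on the log2(TPM + 1) scale. The mitochondrial Prdx3 was measured at 514.7 ± 17.8 TPM and held 36.5% of the summed level of the 6 peroxiredoxins, against 33.2% for Prdx1. Which of the pair stood first depended on the length used: with the principal transcript's length, Prdx1 stood at 428 ± 13.7 TPM and Prdx3 at 355 ± 12.1 TPM, and Prdx1 had 61120 counts in all against 32677. Of the 16 other genes of the thioredoxin and peroxiredoxin system, 15 lay above 1 TPM and 1 below, Msrb3 at 0.0157 ± 0.0203 TPM, with a median of 79.7 TPM.

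**Figure D2:**
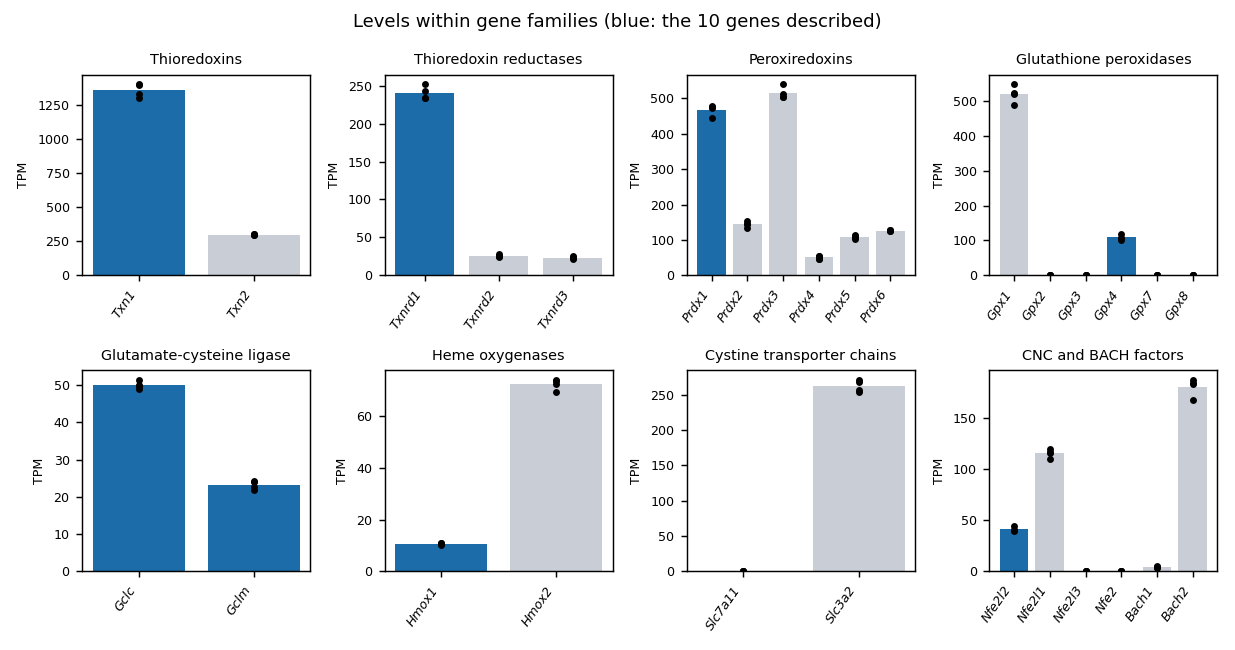
Mean TPM over the 4 Th17 libraries of each gene in 8 families (bars from 0; black points, the 4 libraries; blue, the 10 genes described; each panel has its own axis). Txn1, Txnrd1 and Gclc are the tallest of their panels, and Gpx1, Hmox2, Slc3a2 and Bach2 are the tallest of theirs. Prdx3 stands above Prdx1 with the merged exon length plotted, an order that turns with the principal transcript's length, and no bar is visible for Slc7a11 at 0.0137 TPM.

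Hmox1 (ENSMUSG00000005413.8; chr8:75093621-75100589, plus strand) encodes the inducible heme oxygenase, which opens the heme ring and releases iron. It was measured at 11.0, 11.1, 10.3 and 10.6 TPM in replicates 1 to 4, a mean of 10.7 ± 0.372 TPM (SD, n = 4), from 805 counts in all. The libraries differed by less than 1 TPM. Hmox2, the constitutive form, stood at 72.5 ± 2.20 TPM, above Hmox1 in all 4 libraries, and Hmox1 minus Hmox2 was -2.65 ± 0.08 on the log2(TPM + 1) scale. The value of Hmox2 is uncertain, since 41.9% of its 50-base stretches also occur in other genes. Macrophages are known for high Hmox1, so their markers were checked: 1 of 12 macrophage and dendritic cell markers, Cd68 at 6.12 ± 0.885 TPM, lay above 1 TPM and 11 lay below. Lyz2, Csf1r, C1qa, C1qb, Spic and Clec4f had no count, and the 12 markers summed to between 5.60 and 7.67 TPM per library. Of 6 erythroid markers none lay above 1 TPM by edgeR, 5 lay below, and they summed to between 0.363 and 1.60 TPM.

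The 24 other NRF2 target genes included 18 above the line, 5 below it and 1 called neither, at a median of 28.8 TPM. The highest were Fth1 at 1250.2 ± 37.1 TPM and Ftl1 at 563 ± 21.1 TPM, the ferritin chains that store iron, and the pentose phosphate enzyme Tkt at 296 ± 4.97 TPM. With the principal transcript's length Fth1 stood at 499 TPM, below Ftl1 at 537 TPM. That length of Fth1, 1494 bases, likewise exceeds the 866 bases of exons counted, so this change of order is uncertain. Of the sequence of Ftl1, 58.4% of 50-base stretches also occur in other genes, so its value is uncertain. A pair of genes often used as readouts of NRF2, named after their values were seen, stood far lower. Nqo1, a quinone reductase, was measured at 1.96 ± 0.708 TPM and was above 1 TPM by edgeR (adjusted p 5.24e-07) but on neither side by DESeq2. Srxn1, sulfiredoxin, which restores overoxidised peroxiredoxins, was measured at 3.50 ± 0.688 TPM. Gsta1 and Gsta3, glutathione transferases known for liver, were without a count, for an upper limit of 0.0161 TPM in Gsta3; most of the sequence of Gsta1 is shared with other genes.

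In the order of levels, Txn1 came first, then Prdx1, Txnrd1, Gpx4, Keap1, Gclc, Nfe2l2, Gclm, Hmox1 and Slc7a11. Of the 9 neighbouring pairs, 8 had the same sign in all 4 libraries (exact sign-flip permutation p 0.13, 0.141 after Benjamini-Hochberg adjustment over 9 pairs, two-sided). Keap1 and Gclc were not separated: Keap1 was higher in 3 of 4 libraries, by 0.07 ± 0.06 on the log2(TPM + 1) scale (exact p 0.25, adjusted p 0.25). That pair too depended on the length: Keap1 was higher in all 4 libraries with the principal transcript's length, by 0.30, and without division by length, by 0.38 (exact p 0.13 for each). With the length of the principal transcript, Gclc fell below Nfe2l2, with a difference of -0.18 in place of 0.29, and the ratio of Prdx1 to Txnrd1 moved from 1.95 to 1.29. Of the 14 chosen pairs of one of these genes with a related gene, all kept 1 sign over the 4 libraries (exact p 0.13, adjusted p 0.13). How often unrelated pairs of genes do so was not examined, so the count is not particular to these pairs.

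**Figure D3:**
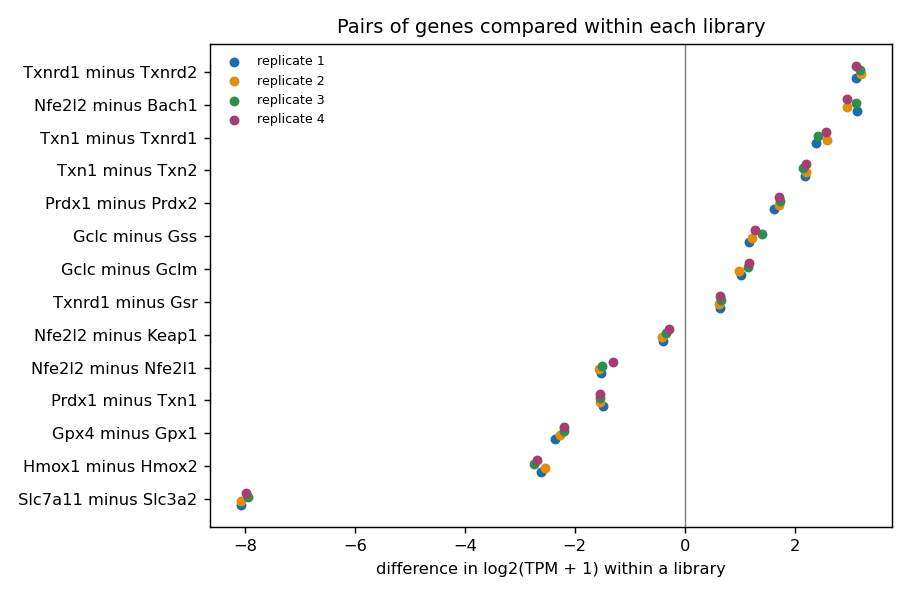
Within-library difference of log2(TPM + 1), first gene minus second, for 14 chosen pairs (coloured points, the 4 Th17 libraries; vertical line, 0). The points of each pair lie on one side of 0, from a mean of -8.02 for Slc7a11 minus Slc3a2 to 3.16 for Txnrd1 minus Txnrd2.

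Spread between the libraries was set beside that of other genes. The coefficient of variation of TPM ran from 1.93% for Gclc to 7.28% for Gpx4 over the 9 genes above 1 TPM, beside a median of 4.29% and quartiles of 2.96% and 6.12% over the 7800 protein-coding genes with a mean of at least 10 TPM. A test of each gene's deviance at edgeR's trended dispersion called none of the 9 as more variable than genes of like abundance (adjusted p under 0.05). It called 0.51% of the 11171 genes tested, so a count of 0 is not particular to these 9. At an unadjusted p under 0.05 it called 0 of the 9 and 5.31% of all genes tested, a share too small to set the 9 apart. The lowest unadjusted p was that of Gpx4, 0.201, and with DESeq2's size factors or the total count in place of TMM the count of members called was 0 as well. A p above the threshold does not show that the libraries were alike. Slc7a11, with 8 counts in all, was under the minimum mean of 10 counts for this test.

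**Figure D4:**
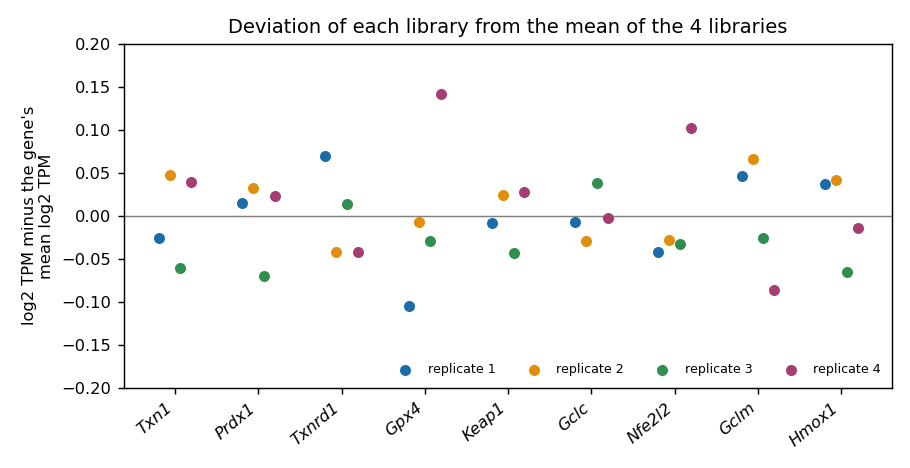
Log2 TPM in each library (coloured points) minus the gene's mean log2 TPM over the 4 libraries, for the 9 genes above 1 TPM. All deviations lie between -0.10 and 0.14, and both of these ends belong to Gpx4, in replicates 1 and 4.

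The genes of selenoprotein synthesis are needed to make GPX4 and TXNRD1, and other selenoproteins were listed with them. Of the 17 genes of selenoprotein synthesis and other selenoproteins, 15 lay above 1 TPM and 2 below, at a median of 48.7 TPM. Selenow at 359 ± 25.3 TPM, Selenoh at 174 ± 8.70 TPM and Selenot at 171 ± 9.75 TPM, all selenoproteins of the thioredoxin-like fold, were the highest; with the principal transcript's length Selenof, at 298 TPM, stood above Selenow, at 247 TPM. Of 14 genes of ferroptosis and iron, 10 lay above and 4 below, at a median of 27.1 TPM. Tfrc, the transferrin receptor that brings in iron, led them at 1069.5 ± 49.0 TPM, followed by the lipid enzymes Acsl4 at 223 ± 5.37 TPM and Lpcat3 at 73.2 ± 6.02 TPM. Slc40a1, the iron exporter ferroportin, was without a count, for an upper limit of 0.00776 TPM.

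Of 13 genes that make or remove superoxide and hydrogen peroxide, 6 were above the line, 6 were below it and 1 was called neither, at a median of 0.892 TPM. The share above, 46.2%, lay near the 45.9% of all protein-coding genes. Sod1, the cytosolic superoxide dismutase, led at 1161 ± 48.2 TPM, with Cyba, a subunit of NADPH oxidase, at 279 ± 19.9 TPM and the mitochondrial Sod2 at 74.8 ± 4.07 TPM, or 33.6 TPM with the principal transcript's length. Over all 8 lists, which hold 128 genes beside the 10, edgeR called 94 above the line, a share of 73.4%, and 29 below it, with 5 in neither class. Of all protein-coding genes, 45.9% were called above and 51.5% below. DESeq2 called 92 of the 128 above and 6 below, and 12 of the genes had no count. Of all 21764 protein-coding genes, DESeq2 called 9540 above and only 1184 below, so its low count below is not particular to these lists. The median of the 128 genes was 25.98 TPM, and 0 of the 101 that could be tested varied between libraries beyond genes of like abundance. Of all 11171 genes tested for this, 0.51% did, so a count of 0 is not particular to these lists.

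**Figure D5:**
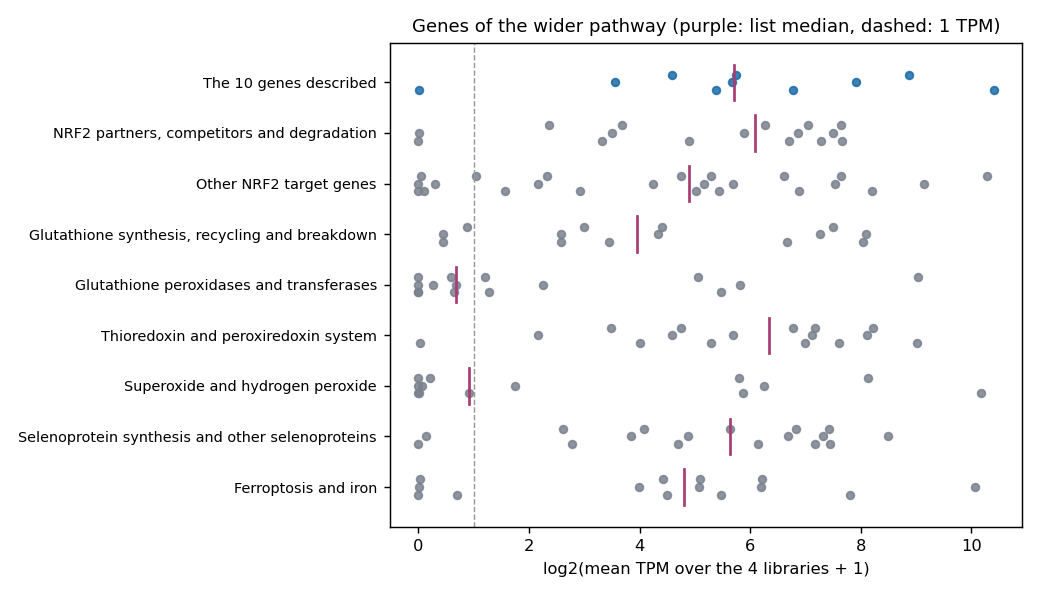
Mean level of each gene over the 4 Th17 libraries, as log2(mean TPM + 1), for the 10 genes (blue points) and 8 lists of the wider pathway (grey points; purple line, list median; dashed line, 1 TPM). The medians of glutathione peroxidases and transferases, 0.598 TPM, and of superoxide and hydrogen peroxide genes, 0.892 TPM, lie left of the dashed line and the other 6 list medians lie right of it. Points are offset vertically only to keep them apart.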

How the data were processed

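RNA-seq was measured in 4 Th17 libraries (n = 4). Total RNA-seq is the assay named in the labels, while the protocol they link is named for poly(A) RNA. The deposited values are raw counts of read pairs for each gene. Per the file headers, they came from featureCounts 1.4.6-p4 with the exons of GENCODE M13 on mm10, as reverse-stranded pairs without multi-mapping reads. Reads shared with near-identical copies are therefore lost. The sources used here do not give the aligner. The tables also give merged exon length.

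Symbols came from GENCODE M21 (99.6% of genes matched), and TPM was computed from counts and length. Principal transcript lengths also came from GENCODE M21, while the counts came from the exons of M13. For some genes, such as Glrx5 and Fth1, that length exceeds the merged exons counted. The setting also changes the total over all genes: Txn1, with 1051 bases in both, went from 1356 to 935 TPM. R 4.3.3 ran edgeR 4.0.16 (main test), DESeq2 1.42.0 and limma 3.58.1. Levels were tested against 1 TPM over 21764 protein-coding genes, spread was tested over genes averaging 10 or more counts after TMM normalisation, and within-library differences by exact sign flips, pseudocount 1. The procedures were tested on simulated data. Depths of 19332509 to 48558772 counts put 3 counts in 1 kb at 0.206 to 0.518 TPM; such limits cover counting error only.

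The genes and lists were chosen with earlier results of these data known. Named genes were the 10, their paired genes, and the 3 highest and the lowest of each list. Nqo1, Srxn1, Gstp1, Glrx3, Ggt1, Selenof, Ddx3y, the peroxidases at 0 and Gsta1 were named after their values were seen. So were 5 of the macrophage markers and the genes of the cysteine routes. Alternatives covered the test, count filter, line, TPM denominator, scaling, length, pseudocount and each library left out. A shared-sequence value was given above a line of 25% of 50-base stretches, a line set after the data were seen. Trac, not annotated as protein-coding, was left out of the tests. The text notes beside the tables were not used.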

Additional observations from a re-analysis of the deposited data

Results flagged for a closer look

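In 62 listed genes, the highest and the lowest library were compared with the nearest other library, as the gap divided by the whole range; chance flags about 1 in 20 groups of 4. Among the 62 genes 4 were flagged, close to that rate. Of the 10 genes, only Nfe2l2 was flagged, in replicate 4, with a ratio of 0.906. It stood at 43.9 TPM there, against 39.7 to 40.1 TPM in the other libraries. The test of deviance at edgeR's trended dispersion did not call Nfe2l2 (unadjusted p 0.632). Txnl1, a thioredoxin-like protein of the proteasome, was low in replicate 2, at 266 TPM against 279.7 to 282 TPM, with a ratio of 0.863. The neutrophil marker Csf3r in replicate 1 (0.0227 TPM) and the B cell marker Ms4a1 in replicate 3 (0.0311 TPM) each had a ratio of 1 because all other libraries were at 0; they rest on 1 and 2 counts.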

How the results depend on the processing

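The counts of 9 genes above and 1 below 1 TPM were the same with DESeq2, limma, lines of 0.5 and 2 TPM, a protein-coding denominator, TMM scaling, the principal transcript's length (an alternative chosen after seeing the data), and without each library in turn. With a minimum mean of 10 counts, 0 were below, since Slc7a11 was not tested. Of the 128 listed genes, 29 were below. DESeq2 called 6, beside 1184 of all 21764 protein-coding genes, and the count minimum left 3. The median of 51.3 TPM became 53.4 with the protein-coding denominator and 45.2 with the principal transcript's length. That length turned Gclc minus Gss to -0.14 and Gclc minus Nfe2l2 to -0.18. Without division by length (CPM), Txn1 minus Txnrd1 was -0.26, Prdx1 minus Txnrd1 -0.26 and Gpx4 minus Keap1 -0.39. CPM also left Txn1 and Prdx1 unseparated (Prdx1 minus Txn1 -0.00097, exact p 1), split the sign of Nfe2l2 minus Gclm (0.09, exact p 0.25) and kept 1 sign in 13 of the 14 pairs, so these orders hold per length only. No paired analysis was possible because all libraries belong to 1 group. Depth limits Slc7a11, whose 8 counts cannot order the libraries, and 4 libraries allow no sign-flip p under 0.13.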

Other observations

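Genes of other routes to cysteine were looked up after the level of Slc7a11 was seen, so they are values and no test of it. Slc1a5, a neutral amino acid carrier, stood at 349 ± 11.4 TPM (SD, n = 4), and Slc7a5, a light chain that also pairs with the Slc3a2 product, at 382 ± 21.1 TPM. Slc1a4, a carrier of alanine, serine and cysteine, stood at 16.0 ± 2.79 TPM, and Slc1a1, a glutamate and cysteine carrier of neurons and kidney, at 0.0364 ± 0.0528 TPM. The further light chains looked up, Slc7a9, Slc7a10 and Slc7a13, had no count, which allows up to 0.0261, 0.0331 and 0.0326 TPM. The remaining light chains of this family were not looked up. Cbs and Cth, the enzymes that make cysteine from homocysteine, stood at 3.45 ± 0.651 and 3.78 ± 0.515 TPM. Atf4, the transcription factor of the amino acid response, stood at 1124 ± 32.9 TPM in the libraries in which Slc7a11 had 0 to 4 counts. That is a transcript level, which does not measure the activity of the ATF4 protein.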
